A study of Mus musculus with 16 samples.

Results

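The mitochondrial ribosomal proteins were taken as the protein-coding genes whose symbol in the GENCODE M21 mouse annotation begins with Mrpl or Mrps followed by digits. There were 78 such genes, 49 Mrpl and 29 Mrps, among 54532 genes in the count tables. By the known composition of the mammalian mitochondrial ribosome 51 of them belong to the large subunit and 26 to the small subunit. Mrps30 and Mrps18a carry small-subunit symbols but sit in the large subunit, and Mrps36 is a subunit of the 2-oxoglutarate dehydrogenase complex that kept its ribosomal name. The genes were spread over 17 chromosomes, with 11 on chromosome 11 and 8 on chromosome 17.

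Macrophages grown from mouse bone marrow were sequenced in 5 groups, 16 libraries in all. Every culture had 7 days with the macrophage growth factor M-CSF at 20 ng/mL and then 24 h with or without tumor-conditioned medium (TCM), that is 70% medium taken from YUMM1.7, a mouse melanoma line. The groups were wild type without the medium (WT naive, n = 3), wild type with it (WT TCM, n = 3), knockout of Trap1 with it (TRAP1 KO TCM, n = 4), and 2 groups of a second mouse line with it, labelled JMJD3 WT TCM (n = 3) and JMJD3 cKO TCM (n = 3). TRAP1 is an HSP90-type chaperone of the mitochondrial matrix, and JMJD3, encoded by Kdm6b, is a demethylase for lysine 27 of histone H3. The driver of the conditional knockout and the deleted part of Kdm6b were not given in the sources used here. Nothing in the labels tells whether replicates are separate animals or separate cultures. Each p-value below is therefore set against the spread of these libraries only, and that spread may be technical.

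Mitochondria keep their own ribosome, which translates the few proteins encoded in mitochondrial DNA, all of them membrane subunits of the respiratory chain and ATP synthase. The ribosomal RNAs come from mitochondrial DNA as well, but each ribosomal protein is encoded in the nucleus, made in the cytosol and imported. Many of the proteins descend from those of the bacterial ribosome, and others were added to the mitochondrial particle later in evolution.

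The promoters of 5 members whose levels the comparisons below turn on are shown first, to let their sequence be read beside the values. Each is the RefSeq window from 250 bases before to 50 bases after the transcription start on GRCm38.p6, written 5′ to 3′ on the gene's strand. Capitals mark matches, on either strand, to the letters of 3 motifs known from promoters of nuclear genes for mitochondrial proteins, which are NRF1 (GCGCA, any base, then GCGC), ETS (CCGGAAGT) and YY1 (AAGATGGC). None of the capitalised matches overlapped another. Mrps12 (chr7:28741772-28742071, minus strand) has a YY1 match at position -199 from the start. Mrpl45 (chr11:97315466-97315765, plus strand) has NRF1 matches at -120, -38 and 16. Mrpl52 (chr14:54426659-54426958, plus strand) has an ETS match at 2, Mrpl42 (chr10:95501900-95502199, minus strand) a YY1 match at 28, and Mrpl23 (chr7:142532782-142533081, plus strand) none of the 3. The Mrpl23 window begins inside the gene as GENCODE places it (positions below), so it holds no bases before that gene start.
Mrps12: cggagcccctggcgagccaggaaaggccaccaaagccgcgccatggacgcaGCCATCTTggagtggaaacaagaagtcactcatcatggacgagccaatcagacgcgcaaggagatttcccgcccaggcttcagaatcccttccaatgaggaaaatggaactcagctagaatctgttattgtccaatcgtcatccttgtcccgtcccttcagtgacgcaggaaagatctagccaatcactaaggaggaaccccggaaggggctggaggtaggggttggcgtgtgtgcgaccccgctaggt
Mrpl45: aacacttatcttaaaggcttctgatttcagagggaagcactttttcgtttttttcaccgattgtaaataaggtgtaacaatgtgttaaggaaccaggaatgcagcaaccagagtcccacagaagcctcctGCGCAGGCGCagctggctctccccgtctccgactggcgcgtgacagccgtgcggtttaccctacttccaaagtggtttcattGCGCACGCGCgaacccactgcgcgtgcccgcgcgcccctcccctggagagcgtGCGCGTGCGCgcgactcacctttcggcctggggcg
Mrpl52: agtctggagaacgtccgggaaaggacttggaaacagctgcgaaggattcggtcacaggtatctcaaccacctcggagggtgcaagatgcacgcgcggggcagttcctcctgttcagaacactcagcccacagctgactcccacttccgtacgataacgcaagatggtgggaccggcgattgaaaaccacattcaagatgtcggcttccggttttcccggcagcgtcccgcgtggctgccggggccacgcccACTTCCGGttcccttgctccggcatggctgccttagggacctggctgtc
Mrpl42: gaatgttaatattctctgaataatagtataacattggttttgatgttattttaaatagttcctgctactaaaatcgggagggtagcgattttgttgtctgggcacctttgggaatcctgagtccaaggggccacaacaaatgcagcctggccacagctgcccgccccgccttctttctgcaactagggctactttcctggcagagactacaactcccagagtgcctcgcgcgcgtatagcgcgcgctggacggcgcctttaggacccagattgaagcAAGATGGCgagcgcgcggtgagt
Mrpl23: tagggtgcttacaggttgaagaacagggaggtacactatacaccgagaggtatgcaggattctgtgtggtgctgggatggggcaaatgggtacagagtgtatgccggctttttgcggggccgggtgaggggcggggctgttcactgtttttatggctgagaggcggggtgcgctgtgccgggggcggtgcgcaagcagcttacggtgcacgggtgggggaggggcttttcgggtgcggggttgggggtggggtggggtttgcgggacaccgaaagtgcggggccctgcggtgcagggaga

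Windows were matched by symbol for 69 of the 78 members, leaving Mrpl4, Mrpl13, Mrpl15, Mrpl19, Mrpl38, Mrpl54, Mrps28, Mrps34 and Mrps35 without one. At least 1 of the 3 motifs was found in 34 of the 69 members (49.3%), against 24.6% of 9412 tested protein-coding genes with a window and 11.7% of all genes with one. The NRF1 letters were in 13 members (18.8%, against 12% of the tested protein-coding genes and 4.6% of all 32851 windows). The ETS letters were in 12 members (17.4%, against 9.62% and 3.89%). The YY1 letters were also in 12 members (17.4%, against 5.51% and 2.75%), and in 8 of these they lay after the start on the gene's own strand, where the letters contain an ATG. The GC box GGGCGG went the other way, with 34 members (49.3%) against 68.2% of the tested protein-coding genes. Within the members the GC box was in 16 of 23 small-subunit genes and 17 of 45 large-subunit genes. The E-box CACGTG was found in 5 members, the CRE letters TGACGTCA in 2 and the TATA letters TATAAA in 5. These shares describe letters in a window and were not tested.

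Libraries held 15361604 to 22426820 counts, and the members together took 0.164% to 0.219% of them. Values below are in CPM unless said otherwise, that is counts divided by the library's total after TMM scaling and set to a common total. Trap1 was at 67.7 ± 5.52 CPM in WT TCM and 0 to 0.0535 CPM in the 4 TRAP1 KO TCM libraries. Kdm6b was at 25.1 ± 1.69 CPM (SD, n = 3) in JMJD3 WT TCM, against 25.6 ± 1.02 (SD, n = 3) in JMJD3 cKO TCM, a log2 difference of 0.04 (95% confidence interval -0.11 to 0.18, adjusted p = 0.749 in edgeR's quasi-likelihood test). Counts over the whole gene therefore did not check that label, and the group is called by its label throughout. The macrophage markers Csf1r, Adgre1, Cd68, Itgam, Fcgr1, Mertk and Lyz2 summed to 12433 to 26000 CPM in every library. The 2 JMJD3 groups lay apart from the others in the first principal component of all genes. They also expressed Xist (means of 845 and 919 CPM) and had 0 counts of Ddx3y, whereas the other 3 groups held 85.2 to 87.2 CPM of Ddx3y and at most 0.05 of Xist. Mouse line, culture set and sex can therefore not be told apart in any comparison across these sets. In bulk RNA, fewer cells of a type and less RNA per cell cannot be told apart either.

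Of the 78 members, 77 were expressed and every one of these entered every test. Their median count per library was 500, against 355 over all genes tested, and no expressed member had fewer than 42 counts in any library. Mrpl53 had 0 counts in all 16 libraries. This allows at most 0.134 to 0.195 CPM depending on the library (3 counts, counting error only), here on library totals without TMM scaling. The predicted gene Gm42688 covers 88% of the exon bases of Mrpl53 on the same strand, and it was at 1.07 to 1.88 CPM by group. Other members share exon bases with a neighbouring gene as well, and for 9 the part shared with a single gene reached 20% of the exon length. Beside Mrpl53, these were Mrpl19, Mrpl24, Mrpl43, Mrps18b, Mrps18c, Mrps25, Mrps27 and Mrps34. Overlaps with different genes were not added up. Mrps6 shares 19.9% with Gm49711 and 10.4% with Slc5a3, both on its strand. Mrpl47 shares 13.9% with Ndufb5 and 10.2% with Actl6a, both on the other strand. Processed pseudogenes exist for Mrpl23, Mrpl48 and Mrps36. How reads shared by such genes were assigned was not given in the sources used here, so the values of these members are uncertain.

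Divided by exon length, the members spanned a 29.1-fold range of CPM per kb. This length joins the exons of all annotated transcripts of a gene, so it need not be that of the transcripts present. It was 607 bases for Mrpl34 and 8152 for Mrpl48. Before division, the group means were 24.4 to 29.1 CPM for Mrpl34 and 18.7 to 22.7 for Mrpl48. The part of annotated length in the range was not tested. Averaged over all 16 libraries, Mrpl34 (44.3 CPM per kb), Mrpl27 (42.6) and Mrps21 (41.3) were highest, and Mrps35 (1.52), Mrpl47 (2.58) and Mrpl48 (2.60) were lowest. Mrpl27 lies next to the peptidyl transferase centre, and Mrps21, Mrpl34 and Mrpl27 are all homologs of bacterial ribosomal proteins. The median was 10.7 CPM per kb, with 11.5 for the large subunit and 7.34 for the small one.

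**Figure D1:**
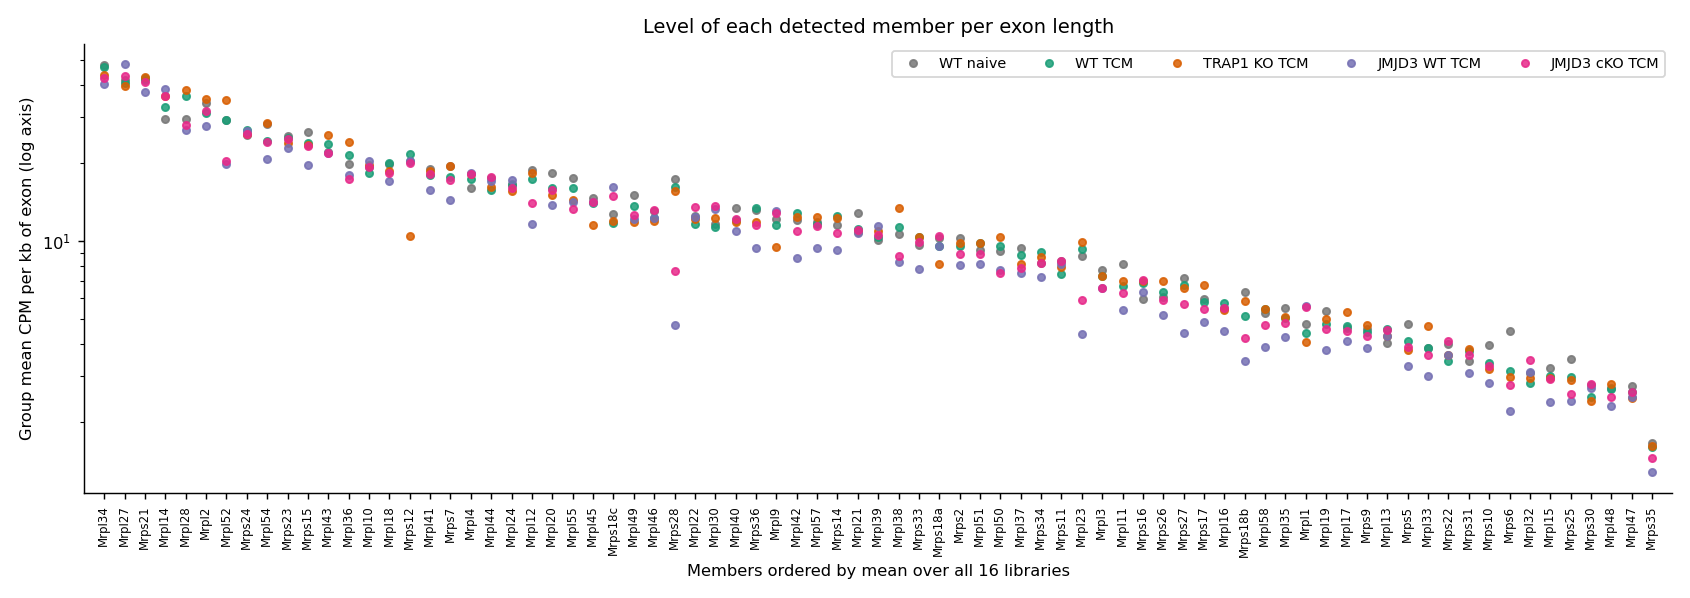
Mean CPM per kb of exon (log axis) of each of the 77 expressed members in each of the 5 groups, with 1 coloured point per group and the members ordered by their mean over all 16 libraries. Mrpl34, Mrpl27 and Mrps21 stand first with 44.3, 42.6 and 41.3 and Mrps35 last with 1.52, and the points of Mrps12 in TRAP1 KO TCM and of Mrps28 in both JMJD3 groups lie apart from those of the other groups.

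Most members differed little between the 5 groups. The ratio of the highest to the lowest group mean had a median of 1.29, and it was under 1.5 for 66 of the 77 members. It reached 2 for 4 members only, which were Mrps28 (3.66), Mrpl23 (2.27), Mrps12 (2.07) and Mrps6 (2.03). JMJD3 WT TCM was the lowest group for 47 members and WT naive the highest for 28. Within a group, the coefficient of variation over libraries had a median of 4.95%.

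Summed over all members, the level was 2104 ± 1.70 CPM (SD, n = 3) in WT naive. With the medium it was 2060 ± 12.1 (n = 3) for wild type and 2079 ± 14.6 (n = 4) for TRAP1 KO. In the JMJD3 line it was 1820 ± 21.7 (n = 3) for the wild type and 1962 ± 32.3 (n = 3) for the conditional knockout. The 3 WT naive libraries lay above all 3 WT TCM libraries, TRAP1 KO TCM overlapped WT TCM, and the JMJD3 cKO TCM libraries lay above the JMJD3 WT TCM ones. In the order WT naive, WT TCM, TRAP1 KO TCM, JMJD3 WT TCM, JMJD3 cKO TCM, the large-subunit sum was 1456 ± 6.75, 1434 ± 8.58, 1457 ± 10.4, 1292 ± 12.6 and 1370 ± 28.8 CPM. The small-subunit sum was 632 ± 7.69, 609 ± 3.26, 606 ± 5.98, 517 ± 8.14 and 578 ± 5.63 CPM in the same order. The ratio of large to small, again in this order, was 2.31 ± 0.0389, 2.35 ± 0.00657, 2.40 ± 0.0207, 2.50 ± 0.0164 and 2.37 ± 0.0398. JMJD3 WT TCM had the highest ratio. These sums depend on the scaling of the totals, and no p is given for them.

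**Figure D2:**
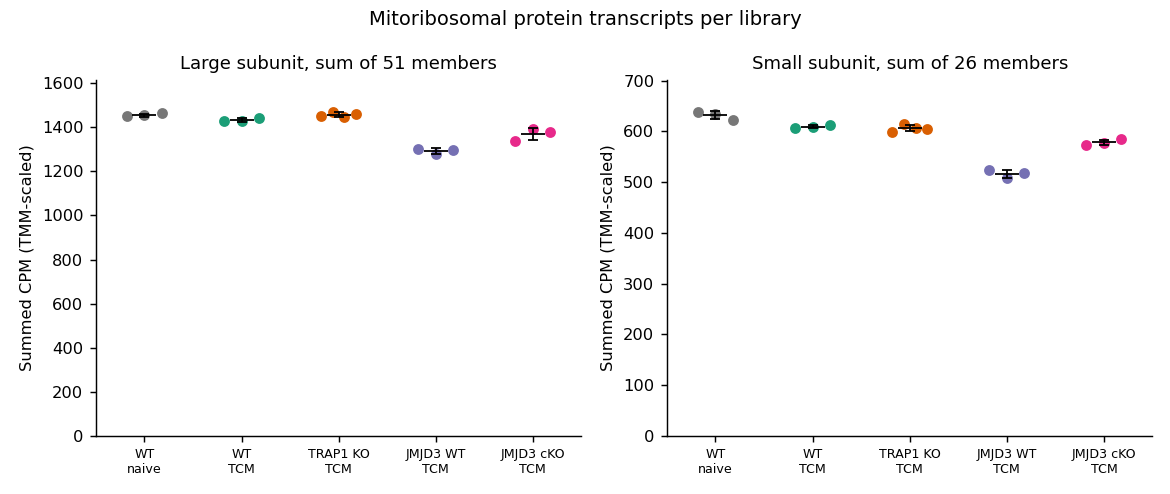
Summed CPM of the members in each of the 16 libraries, by group, for the 51 large-subunit members (left) and the 26 small-subunit members (right), with a point for each library and bars for the mean and SD. The JMJD3 WT TCM libraries are lowest in both panels, with means of 1292 and 517 CPM against 1370 and 578 in JMJD3 cKO TCM.

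The first comparison asked how melanoma medium changed wild-type macrophages. Of the 77 members, 4 were higher and 13 lower in WT TCM than in WT naive at an adjusted p under 0.05 in edgeR's quasi-likelihood test with Benjamini-Hochberg adjustment over all genes. Over all 14078 genes tested, 42.2% were called (21.6% higher and 20.6% lower), and 22.1% of the members were. In the large subunit 3 members rose and 5 fell of 50, and in the small subunit 1 rose and 8 fell of 26. The median log2 difference was -0.06 for the members and -0.01 for all genes, and the median size of the difference without its sign was 0.10 and 0.18. Groups that did not overlap were found for 25.1% of all genes on the higher side and 25.0% on the lower. Without WT naive replicate 1 the counts were 2 higher and 8 lower. Marker genes of other cells moved as well. The 7 neutrophil markers (Ltf, Ngp, Camp, S100a8, S100a9, Elane, Mpo) summed to 50.1 to 54.1 CPM in WT naive and 4.09 to 5.46 in WT TCM, the 6 fibroblast markers (Col1a1, Col1a2, Col3a1, Dcn, Lum, Pdgfrb) to 13.8 to 14.6 and 0.317 to 0.497, and the 7 macrophage markers to 15598 to 15811 and 25533 to 26000. None of these markers was at 0 in all 16 libraries. Taken singly, 4 of the 7 macrophage markers were called higher and 3 lower, so their sum does not stand for each. The part of the marker genes in the members' values was not tested.

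Mrpl28, a large-subunit protein with a bacterial homolog (chromosome 17, 26123500 to 26126613), had the highest rise. It was at 40.6, 40.3 and 42.1 CPM in the WT naive libraries and at 47.9, 50.6 and 52.3 in the WT TCM libraries. The groups did not overlap, and the log2 difference was 0.29 (SE 0.0474, 95% confidence interval 0.20 to 0.39, adjusted p = 1.63e-07). Mrps16 (0.21, adjusted p = 0.0200), Mrpl13 (0.18, adjusted p = 0.00790) and Mrpl14 (0.15, adjusted p = 0.0326) rose less, and each lost its call on leaving out a library. For Mrpl13 this was WT TCM replicate 3 (adjusted p = 0.114). For Mrps16 it was WT naive replicate 1 or 2 or WT TCM replicate 1 (up to 0.135), and for Mrpl14 it was WT naive replicate 1 or 3 or WT TCM replicate 1 (up to 0.109).

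Among the members that fell, Mrpl11 is part of the stalk base where translation factors dock (chromosome 19, 4962147 to 4966999). Its libraries were at 25.4, 25.5 and 28.2 CPM without the medium and at 20.6, 21.4 and 23.1 with it, a log2 difference of -0.29 (SE 0.0692, 95% confidence interval -0.42 to -0.15, adjusted p = 0.000356). In the small subunit, Mrps5, which lines the mRNA entry of the particle (chromosome 2, 127587222 to 127606829), went from 30.5, 32.3 and 31.2 to 26.6, 25.4 and 28.9 CPM. Neither gene's groups overlapped. For Mrps5 the log2 difference was -0.22 (SE 0.0625, 95% confidence interval -0.34 to -0.09, adjusted p = 0.00251). Mrps10, of the head of the small subunit (chromosome 17, 47368887 to 47381417), was at 30.9, 32.9 and 31.8 CPM and then at 26.7, 28.8 and 26.4, with -0.22 (SE 0.0626, 95% confidence interval -0.35 to -0.10, adjusted p = 0.00206). Mrpl28, Mrpl11, Mrps5 and Mrps10 were the 4 of 17 called members that stayed called under all 18 alternatives of scaling, filter, fit and left-out library, the replicate block apart.

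Mrps6 had the deepest fall and a low level. It was at 7.36, 7.01 and 6.27 CPM in WT naive and 5.70, 3.86 and 4.94 in WT TCM, with a log2 difference of -0.50 (SE 0.139, 95% confidence interval -0.78 to -0.23, adjusted p = 0.00175), and without WT TCM replicate 2 the adjusted p was 0.0508. Mrps18b (-0.30, adjusted p = 0.00756), Mrps25 (-0.24, adjusted p = 0.00432), Mrpl54 (-0.22, adjusted p = 0.00927) and Mrps22 (-0.22, adjusted p = 0.0366) fell with groups that did not overlap. The call was lost for Mrps18b without WT TCM replicate 3 (adjusted p = 0.0654), for Mrps25 without WT TCM replicate 1 (0.0614) and for Mrpl54 without WT naive replicate 1 or WT TCM replicate 2 (up to 0.0735). It was lost for Mrps22 without any 1 of the 3 WT naive replicates or without WT TCM replicate 2 or 3 (up to 0.114). Mrpl12, which also binds the mitochondrial RNA polymerase, was not called (log2 -0.11, adjusted p = 0.183). Nor were its stalk partner Mrpl10 (-0.06), Mrpl41 (-0.08), the peptidyl-tRNA hydrolase Mrpl58 (0.06), Mrps30 (-0.16), Mrps34 (0.15) or Mrps36 (0.02).

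**Figure D3:**
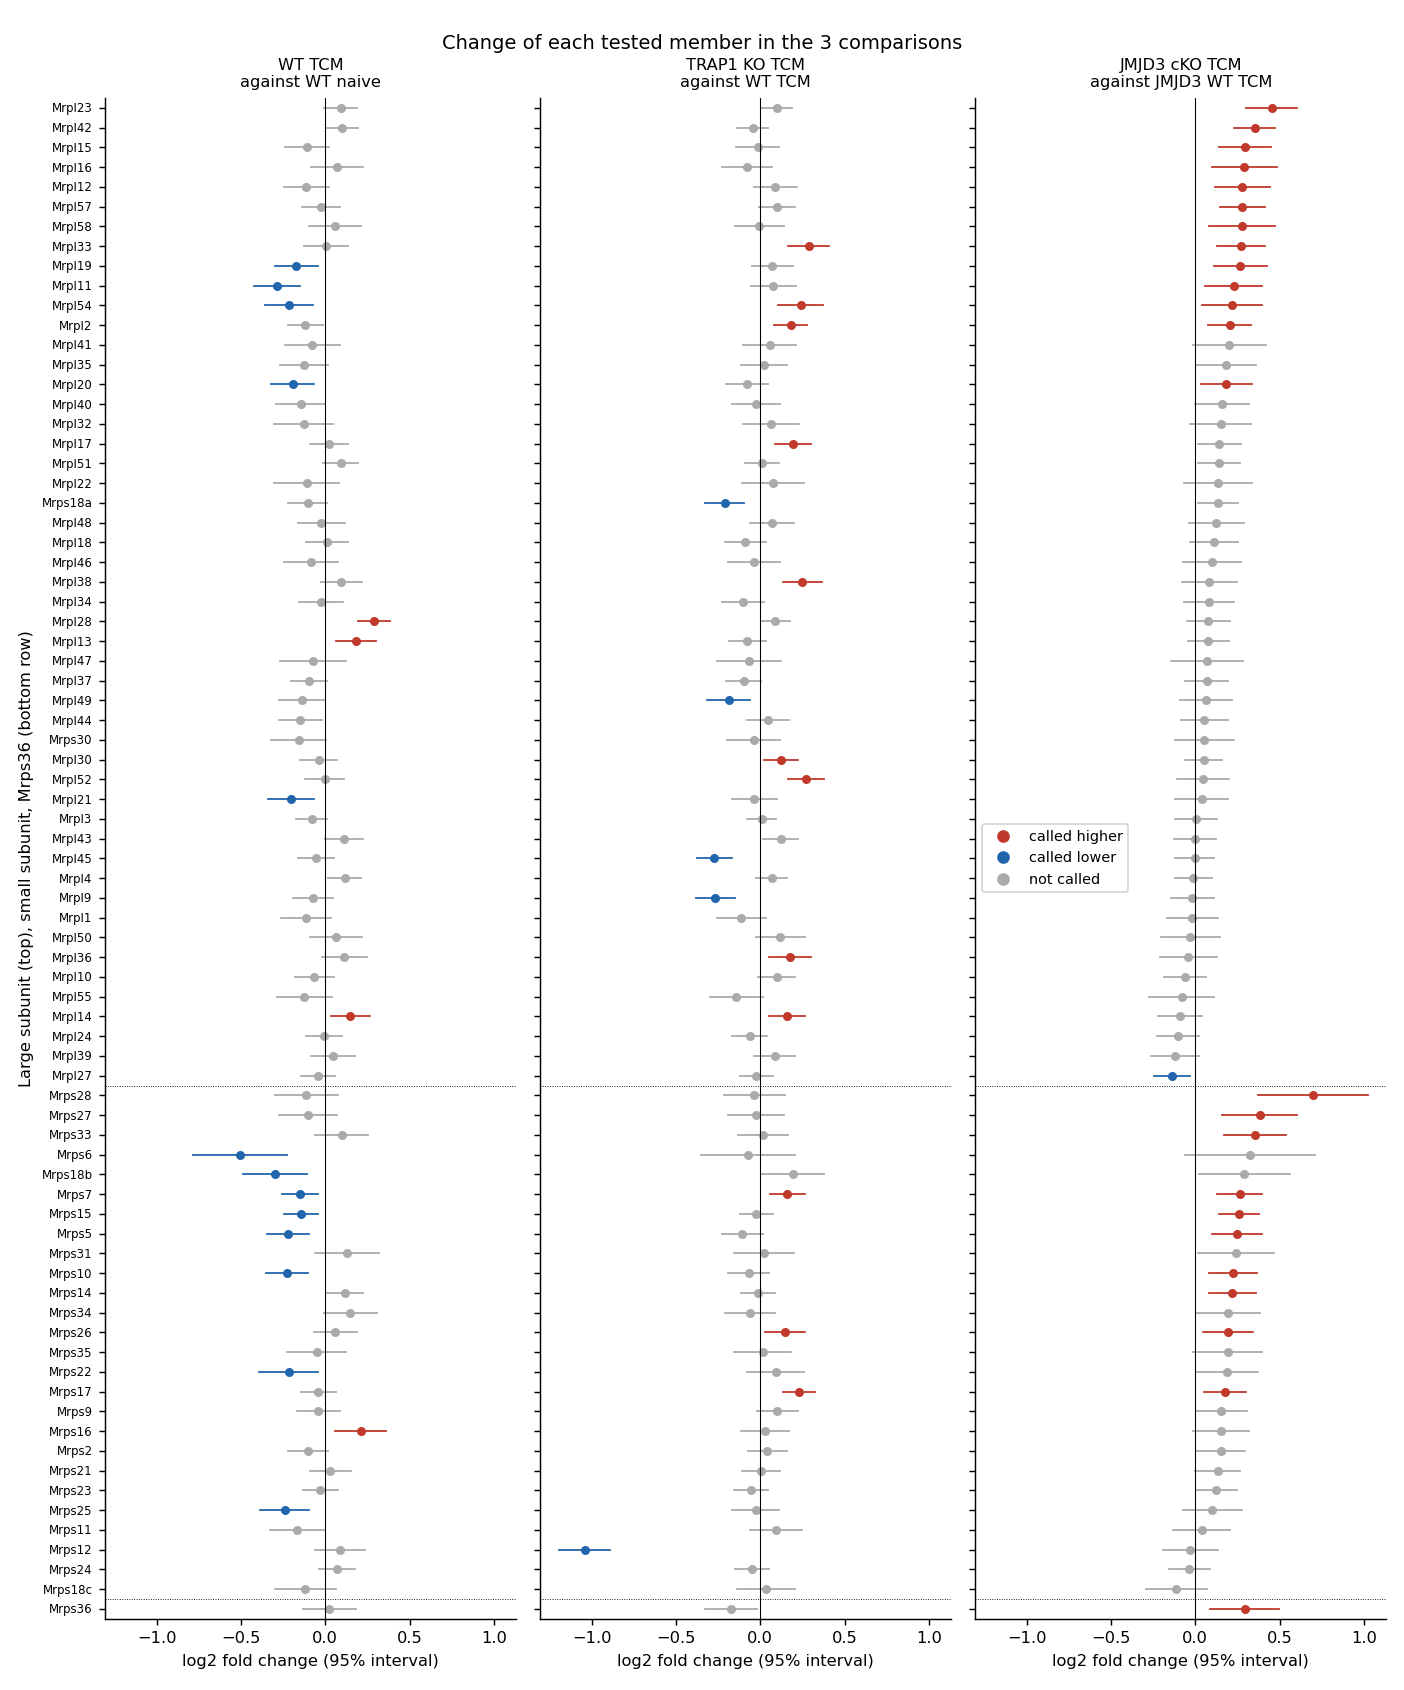
Log2 difference of each of the 77 tested members, with large-subunit members above small-subunit ones and Mrps36 last, each block ordered by the third comparison, in the 3 comparisons WT TCM against WT naive, TRAP1 KO TCM against WT TCM and JMJD3 cKO TCM against JMJD3 WT TCM. Red and blue points are members called higher and lower at an adjusted p under 0.05, grey points are not called, and bars are 95% confidence intervals. Mrps12 lies alone at -1.04 in the second panel, and in the third 24 points are red and 1 is blue.

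The second comparison asked what loss of TRAP1 changed in macrophages that had the medium. There, 12 members were higher and 5 lower than in WT TCM, against 42.2% of all 14078 genes called (21.2% higher and 21.0% lower). Again 22.1% of the members were called. Over all genes, groups did not overlap for 20.9% on the higher side and 22.1% on the lower. The large subunit had 9 higher and 4 lower, and the small subunit 3 higher and 1 lower. The median log2 difference was 0.01 for the members and for all genes alike, and its size without sign had a median of 0.08 for members and 0.16 for all genes. The fibroblast markers summed to 0.317 to 0.497 CPM in WT TCM and 4.82 to 7.25 in TRAP1 KO TCM, the neutrophil markers to 4.09 to 5.46 and 3.51 to 4.98, and the macrophage markers to 25533 to 26000 and 24296 to 24546. Of the 7 macrophage markers 2 were called higher and 4 lower, and of 6 tested neutrophil markers 1 was higher and 1 lower. The part of these markers was not tested here either.

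Mrps12 encodes the small-subunit protein at the decoding centre, where codon and anticodon are matched (chromosome 7, 28739641 to 28741820). Its libraries were at 21.6, 22.5 and 23.4 CPM in WT TCM and at 10.7, 11.2, 9.99 and 11.6 in TRAP1 KO TCM. In the other groups they were at 20.9, 20.2 and 22.3 (WT naive), 21.8, 19.8 and 22.1 (JMJD3 WT TCM) and 19.1, 22.4 and 20.7 (JMJD3 cKO TCM). The 4 TRAP1 KO TCM libraries lay below all 12 others, none of which was under 19.1 CPM. The log2 difference from WT TCM was -1.04 (SE 0.0766, 95% confidence interval -1.19 to -0.89, adjusted p = 1.04e-21), a level 51.4% lower. No other member differed by as much in this comparison. Mrps12 was among the 11 of 17 called members that stayed called under all 18 alternatives apart from the replicate block.

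The start of Mrps12 lies 172 bases from that of Sars2, the mitochondrial seryl-tRNA synthetase, on the opposite strand, so the window printed above holds both starts. Sars2 had a log2 difference of -0.17 in the same comparison (adjusted p = 0.146). Within 250 kb of Mrps12, 15 other genes were tested, of which 2 were higher and 4 lower in TRAP1 KO TCM. Their log2 differences ran from -1.23 for Map4k1 to 1.37 for Fbxo17. The part of these neighbours in the Mrps12 difference was not tested.

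The other members that fell in TRAP1 KO TCM were large-subunit proteins. Mrpl45 faces the inner membrane at the exit of the peptide tunnel (chromosome 11, 97315716 to 97329920). It was at 38.1, 35.0 and 36.1 CPM in WT TCM and 29.0, 30.3, 30.5 and 30.3 in TRAP1 KO TCM, with no overlap and a log2 difference of -0.27 (SE 0.0535, 95% confidence interval -0.38 to -0.17, adjusted p = 1.18e-05). Mrpl9 (chromosome 3, 94443318 to 94451130) went from 29.6, 33.7 and 29.9 to 25.1, 25.9, 26.3 and 25.4 CPM, also without overlap, a log2 difference of -0.27 (SE 0.0585, 95% confidence interval -0.38 to -0.15, adjusted p = 8.3e-05). Mrps18a (-0.21, adjusted p = 0.00135) and Mrpl49 (-0.19, adjusted p = 0.0139) fell less. Mrpl49 lost its call without WT TCM replicate 3 or TRAP1 KO TCM replicate 3 (adjusted p up to 0.0875).

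Among those that rose, Mrpl52 (chromosome 14, 54426909 to 54429756) was at 33.0, 34.8 and 29.5 CPM in WT TCM and 37.7, 39.8, 37.0 and 41.7 in TRAP1 KO TCM. Mrpl38 (chromosome 11, 116131817 to 116138868) was at 29.7, 26.5 and 30.6 and then 32.8, 33.6, 35.0 and 35.5. The small-subunit protein Mrps17 (chromosome 5, 129715497 to 129722556) was at 36.3, 36.9 and 39.4 and then 43.9, 45.0, 43.3 and 42.4. All TRAP1 KO TCM libraries lay above all WT TCM libraries in these 3 genes. The log2 differences were 0.27 (SE 0.0547, 95% confidence interval 0.16 to 0.38, adjusted p = 1.97e-05) for Mrpl52, 0.25 for Mrpl38 (adjusted p = 0.00018) and 0.23 for Mrps17 (adjusted p = 4.69e-05). Mrpl54 (0.24), Mrpl17 (0.19), Mrpl2 (0.18), Mrpl14 (0.16) and Mrpl30 (0.12) rose as well, without overlap of the groups. Mrpl2 belongs to the core of the large subunit around the peptidyl transferase centre. Mrpl14 lost its call without WT TCM replicate 2 (adjusted p = 0.0587). Mrpl30 (adjusted p = 0.0460) lost it without WT naive replicate 2, any WT TCM replicate or TRAP1 KO TCM replicate 1 or 3 (up to 0.149), and under 6 other settings. The highest rise of all members was that of Mrpl33 (0.29), which is named after its values were seen because its groups overlapped. Mrpl33 stayed called under all 18 alternatives apart from the replicate block.

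Of the members named in every comparison, none was called here. Mrps36 was nearest, with a log2 difference of -0.17 (adjusted p = 0.0590). The others were Mrpl12 (0.09), Mrpl10 (0.10), Mrpl41 (0.06), Mrpl58 (-0.00), Mrps5 (-0.11), Mrps30 (-0.04) and Mrps34 (-0.06).

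The third comparison set the conditional knockout of JMJD3 against its own wild type, both with the medium. Of the 77 members, 24 were higher and 1 lower in JMJD3 cKO TCM, against 35.1% of all 13476 genes called (17.3% higher and 17.8% lower). Groups that did not overlap were found for 22.2% of all genes on the higher side and 22.7% on the lower. The large subunit had 13 higher and 1 lower, the small subunit 10 higher and 0 lower, and Mrps36 was higher too. At an unadjusted p under 0.05 the members' counts were 35 higher and 1 lower, and DESeq2 called 16 and 0. The median log2 difference was 0.14 for the members and 0.01 for all genes, and 61 of the 77 had a positive sign. Without JMJD3 WT TCM replicate 2, 15 members were higher. On library totals without scaling factors, 46 members were higher and 0 lower, and the median of all genes moved to 0.09, with 3932 genes higher and 1571 lower against 2326 and 2402 here.

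Mrpl23 sits at the tunnel exit of the large subunit (chromosome 7, 142532686 to 142540747). Its libraries were at 20.2, 23.6 and 19.9 CPM in JMJD3 WT TCM, against 27.7, 27.8 and 31.2 in JMJD3 cKO TCM, a log2 difference of 0.45 (SE 0.0756, 95% confidence interval 0.30 to 0.61, adjusted p = 4.75e-06). In the other 3 groups all 10 libraries were higher still, with means of 48.1 ± 3.05 (TRAP1 KO TCM), 45.4 ± 1.78 (WT TCM) and 42.5 ± 1.63 (WT naive). Mrpl42 (chromosome 10, 95480805 to 95501940), a protein without a bacterial homolog, was at 30.3, 33.6 and 30.7 CPM in the wild type of the line and at 40.3, 38.8 and 41.2 in the conditional knockout, with 0.35 (SE 0.0606, 95% confidence interval 0.23 to 0.47, adjusted p = 7.86e-06). Its 10 libraries in the other groups were at 44.0 to 49.5 CPM. In both genes the cKO libraries lay between those of their wild type and the other groups.

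In the small subunit, Mrps28 (chromosome 3, 8802146 to 8923918) had the largest difference. It was named after its values were seen, since its mean over the libraries of both groups is below the minimum set for named members. It was at 3.90, 4.02 and 3.19 CPM in JMJD3 WT TCM, against 4.97, 6.89 and 6.09 in JMJD3 cKO TCM, with 0.70 (SE 0.161, 95% confidence interval 0.37 to 1.02, adjusted p = 0.000567). TRAP1 KO TCM (11.2, 14.7, 11.7 and 11.0), WT TCM (11.4, 12.7 and 13.7) and WT naive (13.7, 13.6 and 13.3) overlapped one another and lay above both JMJD3 groups. Mrps27, a pentatricopeptide-repeat protein (chromosome 13, 99344786 to 99415562), was at 8.67, 9.57 and 9.32 CPM in the wild type of the line and at 12.5, 12.8 and 10.5 in the conditional knockout, with 0.38 (SE 0.109, 95% confidence interval 0.16 to 0.60, adjusted p = 0.00509). Mrps33 (chromosome 6, 39801804 to 39810988) was at 12.5, 13.5 and 12.8 CPM in the wild type of the line and at 16.2, 17.2 and 16.1 in the conditional knockout, with 0.35 (SE 0.0915, 95% confidence interval 0.17 to 0.54, adjusted p = 0.00189). None of these small-subunit genes had overlapping groups.

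Mrpl12 (chromosome 11, 120484613 to 120489065) was at 17.3, 18.8 and 17.0 CPM in JMJD3 WT TCM, against 22.1, 22.3 and 20.0 in JMJD3 cKO TCM, a log2 difference of 0.28 (SE 0.0819, 95% confidence interval 0.11 to 0.44, adjusted p = 0.00611). Mrpl15 (0.30, adjusted p = 0.00180), Mrpl16 (0.29, adjusted p = 0.0145) and Mrpl57 (0.28, adjusted p = 0.000771) also rose without overlap. So did Mrpl58, the hydrolase that frees stalled peptides (0.28, adjusted p = 0.0206), and Mrps5 (0.25, adjusted p = 0.00755). Mrps36 rose by 0.29 (adjusted p = 0.0210) with overlapping groups. Its libraries were at 13.6, 11.2 and 11.1 CPM in the wild type and at 15.2, 15.3 and 13.4 in the conditional knockout. Mrpl10 (-0.06, adjusted p = 0.475), Mrpl41 (0.20, 0.147), Mrps30 (0.05, 0.684) and Mrps34 (0.20, 0.103) were not called.

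Some of these calls were lost when 1 library was left out. Mrpl16 lost its call without JMJD3 WT TCM replicate 1 or JMJD3 cKO TCM replicate 2 (adjusted p up to 0.165), and Mrps5 without JMJD3 WT TCM replicate 1 (0.0538). Mrpl58 lost it without JMJD3 WT TCM replicate 2 or 3 or JMJD3 cKO TCM replicate 3 (up to 0.102). Mrps36 lost it without JMJD3 WT TCM replicate 2 or 3 or JMJD3 cKO TCM replicate 1 or 2 (up to 0.113). DESeq2 called none of Mrpl16, Mrpl58 and Mrps36 (adjusted p = 0.0561, 0.0699 and 0.0704). Of the 25 called members, 11 were called under all 13 alternatives apart from the replicate block, among them Mrpl23, Mrpl42, Mrpl12, Mrpl15, Mrpl57, Mrps28, Mrps27 and Mrps33.

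Mrpl27 was the 1 member called lower (chromosome 11, 94653767 to 94660089). It was at 48.0, 47.2 and 46.9 CPM in JMJD3 WT TCM, against 41.2, 43.6 and 43.9 in JMJD3 cKO TCM, with -0.14 (SE 0.0535, 95% confidence interval -0.25 to -0.03, adjusted p = 0.0388). The call was lost with library totals, upper-quartile scaling, DESeq2 and no filter (adjusted p = 0.419, 0.0871, 0.0944 and 0.162), and on leaving out any JMJD3 WT TCM replicate or JMJD3 cKO TCM replicate 1 or 2.

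Other gene groups differed in the same comparison. The neutrophil markers summed to 21.1 to 25.0 CPM in JMJD3 WT TCM, against 38.8 to 40.6 in JMJD3 cKO TCM, the macrophage markers to 15687 to 16095 and 12433 to 12805, and the dendritic cell markers to 8.04 to 10.5 and 3.96 to 5.44. Of the 7 macrophage markers 3 were called higher and 4 lower, and of 2 tested dendritic cell markers 1 was called lower. Of 21 cell cycle genes 20 were higher and 1, Pcna, was lower. The part of these differences in the members' values was not tested.

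**Figure D4:**
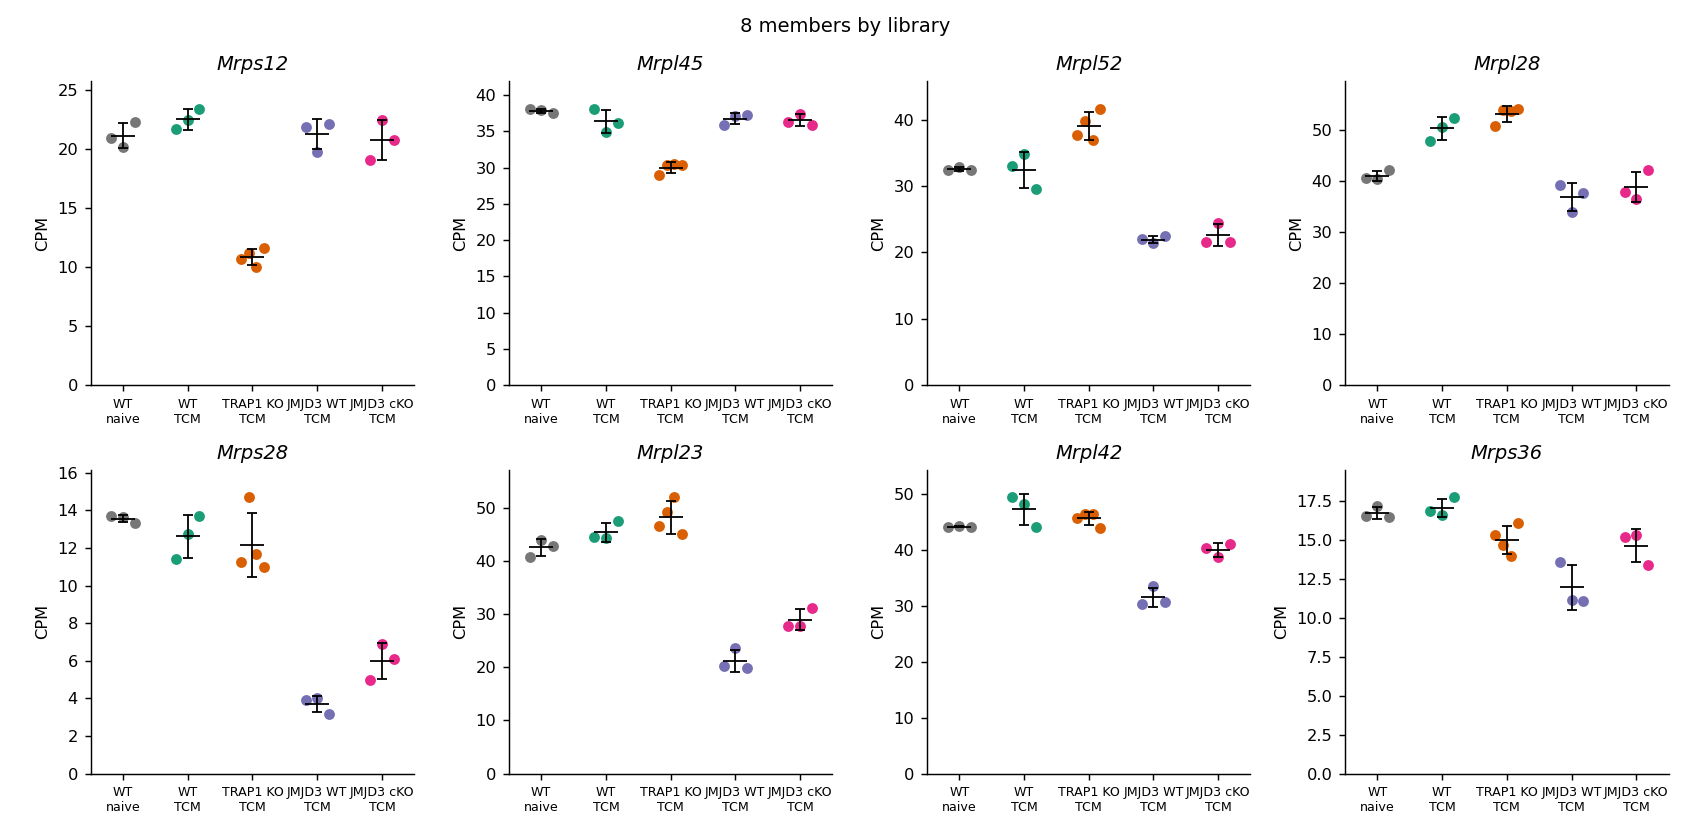
CPM of Mrps12, Mrpl45, Mrpl52, Mrpl28, Mrps28, Mrpl23, Mrpl42 and Mrps36 in each of the 16 libraries, by group, with a point for each library and bars for the mean and SD. Mrps12 has a mean of 10.9 CPM in TRAP1 KO TCM against 20.8 to 22.5 in the other groups, and Mrps28 and Mrpl23 are lowest in JMJD3 WT TCM with JMJD3 cKO TCM next.

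The wild types of the 2 lines, both with the medium, were also set side by side, with line, set and sex confounded. This comparison shares JMJD3 WT TCM with the third and WT TCM with the first and second, so the values are given for each without comparing their patterns. In JMJD3 WT TCM 7 members were higher and 48 lower than in WT TCM, against 61.3% of all 14545 genes called (30.0% higher and 31.3% lower). Over all genes, groups did not overlap for 31.4% on the higher side and 32.8% on the lower. The large subunit had 6 higher and 27 lower of 50 and the small subunit 1 higher and 20 lower of 26. The median log2 difference was -0.22 for the members and -0.00 for all genes. On library totals without scaling factors 2 members were higher and 60 lower. The median of all genes was then -0.17, and 2997 genes were higher and 6454 lower, against 4366 and 4554 here. The neutrophil markers summed to 4.09 to 5.46 CPM in WT TCM and 21.1 to 25.0 in JMJD3 WT TCM, the macrophage markers to 25533 to 26000 and 15687 to 16095, and the dendritic cell markers to 0.887 to 1.43 and 8.04 to 10.5. Of the 7 macrophage markers 3 were called higher and 4 lower, and of 3 tested dendritic cell markers 2 were higher and 1 lower. Of 21 cell cycle genes 20 were lower and 1 higher. The part of these differences in the members' values was not tested.

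Mrps28 (-1.76, SE 0.134, adjusted p = 1.37e-21) and Mrpl23 (-1.10, SE 0.0649, adjusted p = 2.95e-28) were furthest below WT TCM. Mrps27 (-0.61), Mrpl42 (-0.59) and Mrpl12 (-0.59) were lower as well, each with groups that did not overlap. Mrps18c, of the small subunit, was furthest above. It was at 19.3, 16.4 and 16.5 CPM in JMJD3 WT TCM and 12.4, 13.4 and 12.2 in WT TCM, a log2 difference of 0.46 (SE 0.0927, 95% confidence interval 0.28 to 0.65, adjusted p = 8.62e-06). Mrpl1, of the stalk through which used tRNA leaves, was at 26.6, 22.7 and 23.2 CPM in the JMJD3 line and at 19.2, 18.1 and 19.4 in the other, with 0.36 (SE 0.0767, 95% confidence interval 0.20 to 0.51, adjusted p = 3.17e-05). Mrpl27 (0.24), Mrpl14 (0.24) and Mrpl30 (0.23) were higher too, but on library totals they were not called (adjusted p = 0.204, 0.336 and 0.326). Mrps12 was not called (log2 -0.08, adjusted p = 0.381).

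The effect of TRAP1 loss was then compared with the effect of the JMJD3 conditional knockout in 1 fit of all 16 libraries, by an interaction contrast. It was higher for 2 members and lower for 20, against 37.9% of all 14545 genes called (18.4% higher and 19.5% lower). Mrps12 differed most, by -1.02 (SE 0.110, 95% confidence interval -1.23 to -0.80, adjusted p = 2.23e-13). Its log2 difference was -1.04 for TRAP1 KO and -0.03 (adjusted p = 0.821) for JMJD3 cKO. Next were Mrps28 (-0.74, adjusted p = 0.000392), Mrps36 (-0.47, 0.00113), Mrps27 (-0.41, 0.0101) and Mrpl42 (-0.40, 4.04e-06). Mrps28 had -0.03 for TRAP1 KO (adjusted p = 0.803) and Mrpl42 had -0.04 (adjusted p = 0.462). The 2 members with a higher contrast were Mrpl14 (0.24) and Mrpl52 (0.22). On library totals no member was called higher and 30 were called lower. Mrpl14 lost its call without JMJD3 WT TCM replicate 2 or JMJD3 cKO TCM replicate 1 (adjusted p up to 0.124). Mrpl52 lost it in 11 of 16 fits that left out 1 library (up to 0.196), and kept it only without WT TCM replicate 2, TRAP1 KO TCM replicate 1 or 3, JMJD3 WT TCM replicate 2 or JMJD3 cKO TCM replicate 2.

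Genes that work with the ribosomal proteins were read from lists of known function. Of all genes tested, 42.2% were called with the medium, 42.2% in TRAP1 KO TCM and 35.1% in JMJD3 cKO TCM. In JMJD3 WT TCM against WT TCM 61.3% were called. Each list below is to be read beside these shares. The 5 mitoribosomal proteins whose symbols do not follow the Mrp pattern were 1 higher (Aurkaip1, 0.14) and 1 lower (Ptcd3, -0.21) with the medium in wild type. In TRAP1 KO TCM 2 of them were lower and 0 higher in edgeR (0 higher at an unadjusted p under 0.05 and in DESeq2). DESeq2 called 1 lower. The 2 in edgeR were Dap3 (-0.17), a GTP-binding small-subunit protein, and Gadd45gip1, a large-subunit protein at the tunnel exit. Gadd45gip1 was at 14.6 ± 1.11 CPM (SD, n = 3) in WT TCM and 8.16 ± 1.68 (SD, n = 4) in TRAP1 KO TCM, a log2 difference of -0.83 (SE 0.101, 95% confidence interval -1.03 to -0.63, adjusted p = 1.12e-10). In JMJD3 cKO TCM Dap3 was higher (0.18) and no other was called, and DESeq2 called 0 of the 5. In JMJD3 WT TCM against WT TCM 3 of the 5 were lower (1 in DESeq2).

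Of 25 assembly factors, 4 were higher and 6 lower with the medium in wild type, among them the ribosomal RNA methyltransferases Mettl15 (1.15) and Tfb1m (0.40) and the GTPase Mtg1 (-0.40). Loss of TRAP1 went with 4 higher and 1 lower, with Malsu1 (0.38), Eral1 (0.21), Dhx30 (0.16) and Ngrn (-0.25). The JMJD3 conditional knockout had 6 higher and 1 lower, with C1qbp (0.48), Mtg1 (0.54), Rcc1l (0.50) and the helicase Ddx28 (-0.19). The shares of assembly factors called in the 3 comparisons were 40%, 20% and 28%, each below that of all genes (42.2%, 42.2% and 35.1%). DESeq2 called 3 higher and 6 lower, then 3 and 1, then 4 and 0. The 12 translation factors had 0 higher and 1 lower (Gfm2, -0.23) with the medium, and 0 higher and 3 lower in TRAP1 KO TCM. Those 3 were Guf1 (-0.41), the recycling factor Gfm2 (-0.26) and the initiation factor Mtif2 (-0.14). In JMJD3 cKO TCM 2 were higher and 0 lower, the elongation factors Tufm (0.25) and Tsfm (0.29). The zeros among the translation factors were also 0 at an unadjusted p under 0.05 and in DESeq2. DESeq2 called 1 translation factor lower with the medium, 2 lower in TRAP1 KO TCM and 1 higher in JMJD3 cKO TCM. Their shares called in edgeR were 8.33%, 25% and 16.7%, also below those of all genes.

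The 17 mitochondrial tRNA synthetases had 1 higher (Lars2, 0.54) and 2 lower with the medium. In TRAP1 KO TCM 0 were higher (1 at an unadjusted p under 0.05, 0 in DESeq2) and 3 lower, Iars2 (-0.31) among them. In JMJD3 cKO TCM 5 were higher and 0 lower (0 at an unadjusted p under 0.05 and in DESeq2), led by Ears2 (0.76) and Yars2 (0.53). The 19 genes of mitochondrial transcription and RNA processing had 1 higher and 2 lower, then 0 higher and 3 lower, then 4 higher and 1 lower in the 3 comparisons. Lrpprc, which stabilises mitochondrial mRNAs, was at -0.16 with the medium and 0.38 in JMJD3 cKO TCM, both called, and Fastkd5 at -0.59 in TRAP1 KO TCM. Of 8 tested regulators of mitochondrial biogenesis, 1 was higher and 1 lower with the medium, 1 higher and 0 lower in TRAP1 KO TCM (0 lower at an unadjusted p under 0.05 and in DESeq2), and 1 higher and 1 lower in JMJD3 cKO TCM. Pprc1, a coactivator of the PGC-1 family, was -0.18 with the medium and 0.32 in JMJD3 cKO TCM. The shares called in the 3 comparisons were 17.6%, 17.6% and 29.4% for the synthetases. They were 15.8%, 15.8% and 26.3% for transcription and RNA processing, and 25%, 12.5% and 25% for the regulators. Each was below that of all genes (42.2%, 42.2% and 35.1%). DESeq2 called 3 synthetases and 2 transcription and processing genes higher in JMJD3 cKO TCM.

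The larger groups of respiratory and ribosomal genes are given beside the members. Among all genes, 21.6% were higher and 20.6% lower with the medium, and 21.2% and 21.0% in TRAP1 KO TCM. The shares were 17.3% and 17.8% in JMJD3 cKO TCM, and 30.0% and 31.3% in JMJD3 WT TCM against WT TCM. With the medium in wild type, 48 of 77 cytosolic ribosomal proteins were higher and 3 lower (median 0.10), against 4 and 13 of the members (median -0.06). Of 12 mitochondrially encoded proteins, the products of this ribosome, 3 were higher and 2 lower. Of 80 nuclear-encoded respiratory chain genes, 20 were higher and 8 lower.

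In TRAP1 KO TCM 9 of 12 mitochondrially encoded mRNAs were higher and 0 lower (0 at an unadjusted p under 0.05 and in DESeq2), with a median of 0.23 against 0.01 for the members. The highest was mt-Nd2 (0.54). The cytosolic ribosomal proteins had 7 higher and 32 lower, the nuclear respiratory genes 10 and 13, and all 21 cell cycle genes were lower. In JMJD3 cKO TCM 65 of 77 cytosolic ribosomal proteins were higher and 1 lower (median 0.25), and 34 of 79 nuclear respiratory genes were higher and 1 lower (median 0.12), beside 24 and 1 of the members (median 0.14). The mitochondrially encoded mRNAs had 3 higher and 1 lower there. In JMJD3 WT TCM against WT TCM these groups were mostly lower, with 70 of 77 cytosolic ribosomal proteins and all 12 mitochondrially encoded mRNAs below, beside 48 of 77 members. A difference between groups of genes was not tested.

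**Figure D5:**
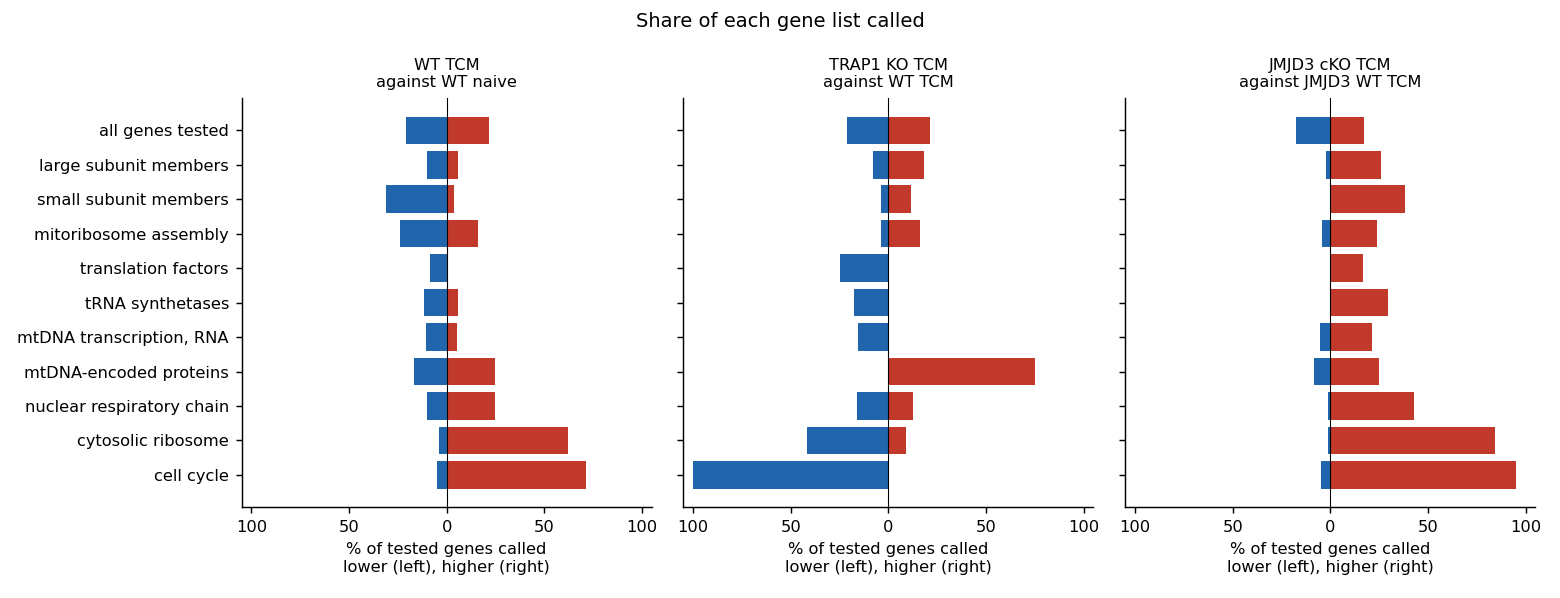
Percentage of the tested genes of each list called higher (red, right) and lower (blue, left) at an adjusted p under 0.05, for all genes, the members of each subunit and the companion lists, in the 3 comparisons within a mouse line. In JMJD3 cKO TCM 13 of 50 large-subunit and 10 of 26 small-subunit members are on the higher side, beside 65 of 77 cytosolic ribosomal proteins.

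The promoter motifs were read beside these calls. All genes had 42.2% called in TRAP1 KO TCM, 35.1% in JMJD3 cKO TCM and 42.2% with the medium. For TRAP1 KO TCM, of the 34 members with at least 1 of the NRF1, ETS and YY1 letters 8 were higher and 5 lower, and of the 34 tested members with none 2 were higher and 0 lower. For the JMJD3 conditional knockout the counts were 7 higher and 1 lower with a motif and 13 higher and 0 lower without, with medians of 0.09 and 0.17. With the medium in wild type they were 1 and 2 with a motif and 2 and 9 without. A difference between members with and without these letters was not tested.

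Many members start close to another gene on the opposite strand. For 33 of the 78 members (42.3%), another protein-coding gene started within 1000 bases on the opposite strand, against 17.0% of 11897 tested protein-coding genes. Mrpl46 and Mrps11, both members, start 412 bases from each other. Of the called members with such a partner, 7 with the medium had 1 partner called in the same direction, 1 in the opposite direction and 5 not called. In TRAP1 KO TCM 9 had 0 in the same direction, 1 opposite, 7 not called and 1 not tested, and in JMJD3 cKO TCM 7 had 1, 2 and 4. The share of all genes called in these 3 comparisons was 42.2%, 42.2% and 35.1%. The partner that moved with its member in JMJD3 cKO TCM was Ska3, which starts 49 bases from Mrpl57. Ska3 was at 1.29 (adjusted p = 0.000521) and Mrpl57 at 0.28 (adjusted p = 0.000771). Mrps27 starts 81 bases from Ptcd2, which had a log2 difference of -0.08 in JMJD3 cKO TCM (adjusted p = 0.407) against 0.38 for Mrps27. Mrpl54 starts 26 bases from Apba3. With the medium, Apba3 was at 0.27 and Mrpl54 at -0.22, and in JMJD3 cKO TCM they were at -0.27 and 0.22. Within 250 kb of Mrpl23, 7 other genes were tested, of which 1 was higher and 4 were lower in JMJD3 cKO TCM.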

How the data were processed

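Per the labels' protocols, total RNA was depleted of ribosomal RNA (Ribo-Zero), made into TruSeq Stranded libraries and sequenced on an Illumina HiSeq. The authors deposited 1 table of raw counts per library, for 54532 Ensembl genes. Tools named in the submitters' processing notes are Bowtie2, HISAT, RSEM and StringTie, with the build mm10. Their roles, the annotation and the strand setting were not given in the sources used here. GENCODE M21 on GRCm38 gave symbols and positions for 54495 genes, and the other 37 stayed in the tests under their identifiers. Promoter windows came from RefSeq (GRCm38.p6).

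Counts were tested in R 4.3.3 with edgeR 4.0.16 (TMM scaling, filterByExpr with a minimum count of 10, robust quasi-likelihood fit, Benjamini-Hochberg adjustment over all genes), and calls were made at an adjusted p under 0.05. The medium and TRAP1 comparisons used 1 fit of their 10 libraries, JMJD3 cKO TCM against JMJD3 WT TCM its own 6, and the others all 16. CPM are on the totals of all 16 libraries scaled together. The test was tried on simulated counts. No pair of replicates agreed within sampling noise (chi-square per degree of freedom 1.74 to 2.72). The members and lists were chosen with earlier results of these data known. Named members were the 8 highest and 8 deepest called per comparison within a line, where groups did not overlap and the mean over both groups was at least 5 CPM. For the other comparisons the 5 highest and 5 deepest called were taken without these limits, a choice made after the values were seen. Also named were 8 fixed members (Mrpl10, Mrpl12, Mrpl41, Mrpl58, Mrps5, Mrps30, Mrps34 and Mrps36), the 3 highest and lowest per exon length, and up to 3 called genes per list and direction. Any other was named after its values were seen. Alternatives were library totals, upper-quartile and DESeq2 size factors, DESeq2 1.42.0, no filter, a mean of at least 50 counts, other sets of libraries in the fit, a replicate block, each library left out and, added after the data were seen, leaving out the 9 members overlapping another gene.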

Additional observations from a re-analysis of the deposited data

Results flagged for a closer look

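In TRAP1 KO TCM, the group with 4 libraries, 39 members were screened for a library far from the rest, and 4 had a gap to the nearest library that took most of the group's range. Chance alone does this in about 1 in 20 groups. Mrpl28 was at 50.7, 53.8, 53.6 and 54.1 CPM, with a gap of 0.848 of the range, and Mrpl45 at 29.0, 30.3, 30.5 and 30.3, with 0.915. Mrps18b was at 11.0, 12.8, 12.8 and 12.5 CPM (0.829) and Mrps22 at 14.0, 13.6, 13.5 and 17.1 (0.858).

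The effect of TRAP1 KO differed from that of the JMJD3 conditional knockout in the interaction contrast for 17 of the named members. Apart from the fixed members, these were named by their values in the same libraries, so the count of 17 is no separate support. Over all 77 tested members 28.6% were called in this contrast, against 37.9% of all genes. In the large subunit the log2 difference of the effects was 0.24 for Mrpl14 (adjusted p = 0.0141), 0.22 for Mrpl52 (0.0432), -0.25 for Mrpl9 (0.0123), -0.32 for Mrpl15 (0.00642) and -0.37 for Mrpl16 (0.00710). It was -0.36 for Mrpl23 (0.000312), -0.40 for Mrpl42 (4.04e-06), -0.27 for Mrpl45 (0.00302), -0.26 for Mrpl49 (0.0334), -0.28 for Mrpl58 (0.0464) and -0.35 for Mrps18a (0.000305). In the small subunit it was -1.02 for Mrps12 (2.23e-13), -0.74 for Mrps28 (0.000392), -0.41 for Mrps27 (0.0101), -0.34 for Mrps33 (0.0129) and -0.36 for Mrps5 (0.00113). For Mrps36 it was -0.47 (0.00113). On leaving out 1 library, 6 of these 17 lost the call. Mrpl52 lost it in 11 of 16 fits (adjusted p up to 0.196) and Mrpl58 in 8 (up to 0.166), without WT TCM replicate 1 or 2, TRAP1 KO TCM replicate 1 or 3, or replicate 2 or 3 of either JMJD3 group. Mrpl49 lost it in 6 (up to 0.112), without WT TCM replicate 3, TRAP1 KO TCM replicate 3, JMJD3 WT TCM replicate 1 or 2 or JMJD3 cKO TCM replicate 2 or 3. Mrpl14 lost it in 2 (up to 0.124), Mrpl9 without WT TCM replicate 2 or JMJD3 cKO TCM replicate 3 (up to 0.0819), and Mrpl16 without JMJD3 cKO TCM replicate 2 (0.0669). The 2 effects come from different mouse lines, so line, set and sex cannot be told apart from them.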

How the results depend on the processing

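On library totals without scaling factors, the members were 46 higher and 0 lower in JMJD3 cKO TCM. In JMJD3 WT TCM against WT TCM 2 were higher and 60 lower, against 7 and 48 with scaling. The interaction had 0 higher and 30 lower, against 2 and 20. There all genes split into 2074 higher and 3714 lower against 2680 and 2839. The 1 lower member in JMJD3 cKO TCM became 0 with upper-quartile factors, DESeq2 and no filter, the interaction had 1 higher with these 3 settings, and no filter left 2 higher in WT TCM against WT naive. Leaving out 1 library at a time gave 2 to 5 higher and 8 to 13 lower in WT TCM against WT naive, 8 to 14 and 4 to 6 in TRAP1 KO TCM, 15 to 24 and 0 to 1 in JMJD3 cKO TCM, 6 to 7 and 43 to 48 in JMJD3 WT TCM against WT TCM, and 0 to 2 and 15 to 23 in the interaction. Mrpl27, the lower member of JMJD3 cKO TCM, lost its call without any JMJD3 WT TCM replicate or JMJD3 cKO TCM replicate 1 or 2, and the 1 lower member without JMJD3 WT TCM replicate 2 was Mrpl39 (-0.20, adjusted p = 0.0377).

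Small differences changed sign. Mrpl58 in TRAP1 KO TCM was 0.00601 on library totals and 0.00612 with a mean of at least 50 counts. Leaving out 1 library, it ran from -0.0762 to 0.0596, with 0.00410, 0.0596 and 0.00871 without WT TCM replicate 1, WT TCM replicate 2 and TRAP1 KO TCM replicate 1. On library totals Mrpl10 was 0.0188 in JMJD3 cKO TCM and -0.0246 in JMJD3 WT TCM against WT TCM, where Mrps30 was -0.0453. Leaving out 1 library, Mrpl58 with the medium ran from -0.00623 (WT TCM replicate 2) to 0.130, Mrps36 from -0.00123 (WT TCM replicate 3) to 0.0445, and Mrps30 in TRAP1 KO TCM from -0.105 to 0.0330 (TRAP1 KO TCM replicate 3). In JMJD3 cKO TCM Mrps30 ran from -0.0107 (JMJD3 WT TCM replicate 2) to 0.136, with -0.00841 without JMJD3 cKO TCM replicate 3. The cause of these changes was not tested.

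Same-numbered libraries did not deviate together (correlations -0.028 to 0.020), so the numbers give no pairing. With the replicate block the counts were 5 higher and 13 lower with the medium, 14 and 6 in TRAP1 KO TCM, 23 and 1 in JMJD3 cKO TCM, 7 and 48 in JMJD3 WT TCM against WT TCM, and 1 and 18 in the interaction. Depth limits Mrps6, Mrps28 and Mrps18b most, with as few as 42, 50 and 91 counts in a library.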
